A study of Homo sapiens with 12 samples.

Results

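The insulin-like growth factor (IGF) system was followed in MRC5 cells, which are human embryonic lung fibroblasts. Its transcripts were read during growth, after irradiation and after irradiation in the presence of mitochondrial carrier inhibitors. Its members were the 10 genes with the symbols IGF1, IGF2, IGF1R, IGF2R, IGFBP2, IGFBP3, IGFBP4, IGFBP5, IGFBP6 and IGFBP7, out of 57500 genes in the count table. Each symbol stood on a single row. Of the 10 members, 9 passed the filter on low counts and were tested. IGF1 did not pass and is given by its counts alone.

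The study asked how mitochondrial metabolism bears on the secretory phenotype of senescent cells. It sequenced RNA from 4 groups of 3 libraries: dividing cells (Prol), cells driven into senescence by an X-ray dose of 20 Gy (Sen(IR)), and cells given the same dose and then cultured in UK5099 (Sen(IR+UK5099)) or in CTPI2 (Sen(IR+CTPI2)). UK5099, used at 100 µM, blocks the mitochondrial pyruvate carrier. CTPI2, for which the methods give 15 or 30 µM without saying which was sequenced, blocks the citrate carrier SLC25A1. The methods place collection 10 to 12 days after irradiation, with inhibitor added 1 day after it. All groups shared the same unmodified cell line and a medium with 10% serum, which itself carries IGFs and their binding proteins, so the RNA reports what the cells made and not what surrounded them. A single line is a limit of the model. The figure legends of the study describe the sequenced samples as independent experiments or conditions, whereas the sample labels give only replicate numbers and name no separate cultures. The p-values weigh the differences between groups against the spread between these libraries only.

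IGF1 and IGF2 are small secreted ligands that activate IGF1R, a receptor tyrosine kinase upstream of the PI3K-AKT and MAPK pathways. IGF2R, the cation-independent mannose 6-phosphate receptor, takes IGF2 to the lysosome and also sorts lysosomal enzymes. The IGF-binding proteins (IGFBPs) hold the ligands outside the cell and set how much reaches the receptor, until proteases such as pappalysin cut them. Fibroblasts secrete several IGFBPs, and some of these are known components of the senescent secretome.

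Total counts ran from 20597736 to 28245693 per library, and mitochondrial genes held 2.36 to 2.68% of them in Prol, 2.78 to 3.21% in Sen(IR), 3.81 to 4.23% in Sen(IR+UK5099) and 2.39 to 3.28% in Sen(IR+CTPI2). All 10 fibroblast markers stood at or above 1 CPM (counts per 1000000 of the scaled library total) in every group. The summed level of these markers was 21364 to 25402 CPM in Prol, 20693 to 21279 in Sen(IR), 10908 to 11400 in Sen(IR+UK5099) and 18265 to 20052 in Sen(IR+CTPI2). Epithelial, endothelial and leukocyte markers summed to at most 2.04, 6.27 and 4.95 CPM in any library. The cell cycle inhibitor CDKN1A averaged 315 CPM in Prol and 1055 in Sen(IR), and the proliferation marker MKI67 ranged from 210 to 271 and from 9.27 to 12.6. CDKN2A, which encodes the cell cycle inhibitor p16, averaged 7.52 CPM in Prol and 4.07 in Sen(IR) (log2 -0.89, edgeR adjusted p 6.67e-05). Fewer cells of a type and less RNA per cell cannot be told apart in such bulk samples.

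The 2 binding-protein genes with the sharpest opposite course after irradiation, IGFBP3 and IGFBP4, are shown first by the 250 bases upstream of their annotated start (RefSeq, GRCh38.p14), because they fell together with UK5099 after having moved apart with irradiation. RefSeq promoter entries were found for 8 of the 10 members, IGF2 and IGFBP7 being the others. Both sequences are printed 5′ to 3′ on the gene's strand, and capitals mark GC boxes (GGGCGG or its reverse complement CCGCCC) and TATA boxes (TATAAA or TTTATA), searched on both strands.
IGFBP3, chr7:45921273-45921522, minus strand: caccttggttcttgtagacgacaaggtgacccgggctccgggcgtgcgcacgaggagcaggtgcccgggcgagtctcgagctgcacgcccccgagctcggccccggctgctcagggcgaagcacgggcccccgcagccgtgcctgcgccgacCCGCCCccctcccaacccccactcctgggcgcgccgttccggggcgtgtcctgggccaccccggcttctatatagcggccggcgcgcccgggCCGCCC
IGFBP4, chr17:40443200-40443449, plus strand: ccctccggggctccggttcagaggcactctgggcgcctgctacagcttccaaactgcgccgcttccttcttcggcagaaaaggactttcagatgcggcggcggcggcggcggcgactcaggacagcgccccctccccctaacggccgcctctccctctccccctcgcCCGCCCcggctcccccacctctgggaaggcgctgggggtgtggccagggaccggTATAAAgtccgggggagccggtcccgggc
IGFBP3 carried 2 GC boxes, with 76.0% G and C, and IGFBP4 carried 1 GC box and 1 TATA box, with 71.6% G and C. Of 35116 RefSeq promoter windows of this length, 42.6% held a GC box and 10.7% a TATA box, and the median G and C content was 58.0%. Neither window held a CCAAT box (CCAAT or ATTGG, in 32.0% of windows) or the AP-1 letters TGANTCA (in 6.57%). These matches describe the letters of the windows only, and the IGFBP3 window lies inside the span of a longer annotated transcript of the gene.

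On RNA level per length (CPM per kilobase of annotated exon), IGFBP5 was the leading member in Prol at 1798, followed by IGFBP4 at 315, IGFBP7 at 221 and IGFBP3 at 159. IGFBP6 followed at 25.7, then IGF2R at 11.3, IGF2 at 7.94, IGF1R at 5.45, IGFBP2 at 0.359 and IGF1 at 0.0308. No pair of neighbours in this order overlapped between its 3 libraries. In Sen(IR) the order became IGFBP4 at 908, IGFBP5 at 618, IGFBP7 at 348, IGF2R at 31.9, IGFBP6 at 26.3, IGFBP3 at 23.0, IGF1R at 6.27, IGF2 at 1.44 and IGFBP2 at 0.896, again without overlap between neighbours. IGFBP3 thus went from 4th to 6th, and IGFBP4 took the first place from IGFBP5. The ranks of IGFBP3 and IGFBP6 in Sen(IR) swap when the longest transcript sets the length.

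**Figure D1:**
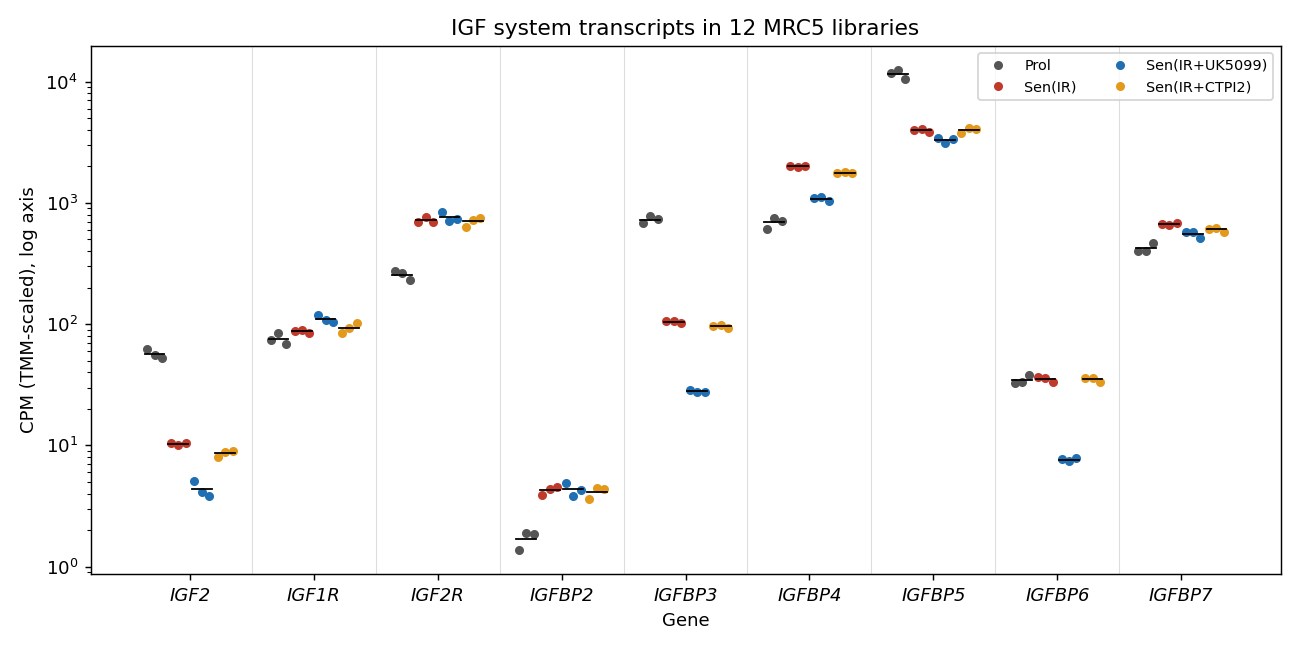
Level of the 9 tested members in each of the 12 libraries, in CPM on a log axis, with 1 point per library and a line at the group mean. IGF2 and IGFBP3 step down from Prol to Sen(IR) and again to Sen(IR+UK5099), IGFBP6 drops in Sen(IR+UK5099), and the Sen(IR+CTPI2) points lie close to those of Sen(IR). CPM values of different genes are not corrected for length.

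Irradiated senescent cells were first set against proliferating cells. A gene was called when edgeR's quasi-likelihood test gave a Benjamini-Hochberg adjusted p under 0.05 over 16251 genes together with an absolute log2 fold change over 0.5. Of the 9 members tested, 4 were higher in Sen(IR) (IGF2R, IGFBP2, IGFBP4 and IGFBP7) and 3 were lower (IGF2, IGFBP3 and IGFBP5). Of all tested genes, 47.2% were called in this comparison, 24.8% higher and 22.4% lower. The median log2 fold change was 0.20 over the members and 0.01 over all tested genes. For 7 members no library of either group fell within the range of the other, as was the case for 70.9% of all tested genes.

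Among the ligands, IGF1 was at the limit of detection. Its counts were 1, 13 and 4 in the Prol libraries, 0, 2 and 1 in Sen(IR), 0, 2 and 2 in Sen(IR+UK5099) and 0, 4 and 7 in Sen(IR+CTPI2). A count of 0 allows up to 3 counts, or a mean of 0.141 CPM in Sen(IR), and intervals of this kind cover counting error only. IGF1 (ENSG00000017427, chromosome 12, 102395874 to 102481744, GRCh38) also shares 82.5% of its exon bases with HELLPAR on the opposite strand, and whether strand was used in counting was not stated.

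IGF2, the ligand these fibroblasts did transcribe, stood at 62.6, 55.2 and 52.5 CPM in Prol and at 10.4, 10.1 and 10.4 CPM in Sen(IR). Every Prol library was above every irradiated one. The difference was 5.50-fold, with a log2 fold change of -2.46 (SE 0.0922, edgeR adjusted p 2.91e-16). IGF2 (ENSG00000167244, chromosome 11, 2129112 to 2158391) shares 44.4% of its exon bases with other annotated genes, among them INS-IGF2 and IGF2-AS. Part of its reads may thus have been left uncounted or assigned to another of these genes. INS-IGF2 itself had 0 counts in all 12 libraries.

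The receptors behaved unequally. IGF2R (ENSG00000197081, chromosome 6, 159969082 to 160113507) had 275, 264 and 229 CPM in Prol and 699, 771 and 691 CPM in Sen(IR). All irradiated libraries were higher, by 2.81-fold (log2 1.49, SE 0.0742, edgeR adjusted p 4.46e-14). IGF1R (ENSG00000140443, chromosome 15, 98648539 to 98964530) had 73.9, 85.2 and 69.0 CPM in Prol and 87.6, 90.3 and 84.3 in Sen(IR). Its libraries overlapped, and its log2 fold change of 0.20 (SE 0.0760, edgeR adjusted p 0.0226) stayed under the fold limit. Per length, IGF2R was 2.09 ± 0.196 times IGF1R in Prol and 5.08 ± 0.174 times in Sen(IR) (SD, n = 3). The SD covers the libraries only, and the ratio depends on the length used. With the longest transcript as length, IGF2R stood at 18.0 CPM per kilobase in Prol and 50.6 in Sen(IR). IGF1R then stood at 6.21 and 7.14.

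Among the binding proteins, the largest fall was in IGFBP3 (ENSG00000146674, chromosome 7, 45912245 to 45921874), which encodes the main IGF carrier of serum. Its level was 678, 774 and 734 CPM in Prol and 106, 106 and 103 CPM in Sen(IR). The groups were far apart, by 6.94-fold (log2 -2.80, SE 0.0545, edgeR adjusted p 6.49e-21). Ranked by counts, IGFBP3 lay between 154 and 180 of all genes in the Prol libraries and between 2000 and 2110 in Sen(IR).

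IGFBP5 (ENSG00000115461, chromosome 2, 216672105 to 216695549), whose product binds extracellular matrix as well as IGFs, had the highest count of any gene in all 3 Prol libraries. It alone took 1.01 to 1.20% of the counts there. Its level was 11785, 12502 and 10589 CPM in Prol and 4021, 4102 and 3858 CPM in Sen(IR). The libraries did not overlap, the fall was 2.91-fold (log2 -1.54, SE 0.0578, edgeR adjusted p 2.94e-16), and in Sen(IR) IGFBP5 still ranked 9 to 10 with 0.382 to 0.404% of the counts.

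IGFBP4 (ENSG00000141753, chromosome 17, 40443450 to 40457725), known as an inhibitor of IGF action until it is cleaved by pappalysin-1, took the opposite course. It stood at 614, 757 and 712 CPM in Prol and at 2023, 1977 and 2007 CPM in Sen(IR). All irradiated libraries were higher, by 2.88-fold (log2 1.53, SE 0.0597, edgeR adjusted p 6.09e-16), and its rank by counts went from 161 to 203 in Prol to 32 to 37 in Sen(IR).

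IGFBP7 (ENSG00000163453, chromosome 4, 57030773 to 57110385) encodes a member that binds IGFs weakly and is a known product of senescent cells. It had 402, 405 and 471 CPM in Prol and 665, 664 and 687 in Sen(IR). The groups were separate, with a rise of 1.58-fold (log2 0.66, SE 0.0594, edgeR adjusted p 1.54e-09). IGFBP7 shares 18.3% of its exon bases with IGFBP7-AS1 and POLR2B on the other strand.

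IGFBP2 (ENSG00000115457, chromosome 2, 216632828 to 216664436), the neighbour of IGFBP5 on the chromosome, was scarce, with 1.36, 1.89 and 1.86 CPM in Prol and 3.87, 4.36 and 4.51 CPM in Sen(IR). It rose 2.48-fold without overlap (log2 1.31, SE 0.182, edgeR adjusted p 1.33e-06). IGFBP6 (ENSG00000167779, chromosome 12, 53097436 to 53102345), whose product prefers IGF2 over IGF1, had 32.8, 33.1 and 37.8 CPM in Prol and 36.5, 35.9 and 33.6 in Sen(IR). These libraries overlapped, and the log2 fold change was 0.03, with a 95% interval from -0.12 to 0.18 and an edgeR adjusted p of 0.719.

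Summed per length, the 6 IGFBPs amounted to 2519 ± 147 CPM per kilobase in Prol and 1924 ± 12.1 in Sen(IR) (SD, n = 3). IGFBP5 made up 71.3% of it in Prol and 32.1% in Sen(IR), IGFBP4 12.5% and 47.2%, IGFBP7 8.80% and 18.1%, and IGFBP3 6.34% and 1.19%. Per length, the level of IGFBP4 was 1.97 times that of IGFBP3 in Prol and 39.6 times in Sen(IR). Sums, shares and ratios per length depend on the length used, here and below. With the longest transcript as length, IGFBP3 stood at 277 CPM per kilobase in Prol and 39.9 in Sen(IR). IGFBP4 then stayed at 315 and 908.

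**Figure D2:**
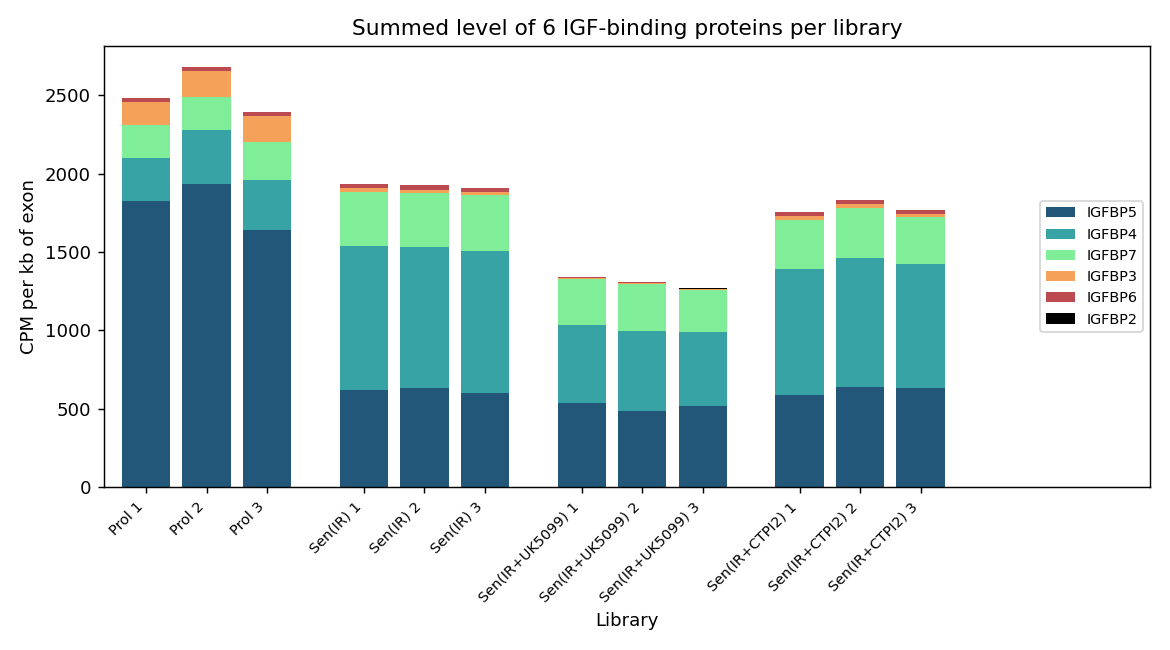
Summed level of 6 IGFBP genes in each library, in CPM per kilobase of annotated exon, stacked by gene. The share of IGFBP5 falls from 71.3% in Prol to 32.1% in Sen(IR) while that of IGFBP4 rises from 12.5 to 47.2%, and the Sen(IR+UK5099) bars are the shortest.

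The second question was how these transcripts differed in irradiated cells cultured in UK5099. With UK5099, 4 of the 9 members were lower than in Sen(IR) (IGF2, IGFBP3, IGFBP4 and IGFBP6) and 0 were called higher by edgeR. Of all tested genes, 20.8% were called, 8.76% higher and 12.1% lower. An adjusted p under 0.05 at any fold was reached by 7 members and by 45.4% of all tested genes, and the libraries did not overlap for 7 members and for 56.6% of all tested genes. The median log2 fold change was -0.27 over the members and 0.01 over all tested genes.

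IGFBP6 was not called after irradiation, yet showed the largest change of any member with the inhibitor. Its 3 libraries in Sen(IR+UK5099) held 7.66, 7.38 and 7.87 CPM, against 33.6 to 36.5 in Sen(IR). All were lower, by 4.63-fold (log2 -2.21, SE 0.0821, edgeR adjusted p 1.24e-15).

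IGFBP3 stood at 28.8, 27.6 and 27.4 CPM with UK5099, below every Sen(IR) library, which was a further fall of 3.76-fold (log2 -1.91, SE 0.0577, edgeR adjusted p 2.73e-17). IGF2 went the same way, with 5.09, 4.12 and 3.80 CPM and a 2.38-fold lower level (log2 -1.25, SE 0.116, edgeR adjusted p 8.60e-09). Both ligand and carrier had therefore fallen at irradiation and were lower again with UK5099. Against Prol, Sen(IR+UK5099) was 26.1-fold lower for IGFBP3 (log2 -4.71, edgeR adjusted p 7.60e-24) and 13.1-fold lower for IGF2 (log2 -3.71, edgeR adjusted p 7.64e-19).

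IGFBP4 was called higher after irradiation and lower with UK5099. It had 1097, 1121 and 1037 CPM, lower than all Sen(IR) libraries and 1.85-fold below them (log2 -0.88, SE 0.0587, edgeR adjusted p 3.35e-11). It remained above all Prol libraries, by 1.56-fold (log2 0.64, edgeR adjusted p 1.44e-09).

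IGFBP5 had 3460, 3144 and 3338 CPM and IGFBP7 had 571, 578 and 518 CPM with UK5099, in each case below all 3 Sen(IR) libraries, so that IGFBP7, too, moved against its rise after irradiation. Their log2 fold changes were both -0.27 (SE 0.0566 and 0.0591, edgeR adjusted p 4.83e-04 and 6.26e-04) and stayed under the fold limit. IGF1R had 118, 109 and 105 CPM, above all Sen(IR) libraries, with a log2 fold change of 0.34 that was likewise under the limit (SE 0.0750, edgeR adjusted p 7.78e-04). Against Prol, a comparison that spans irradiation and inhibitor, IGF1R was called higher (log2 0.54, edgeR adjusted p 1.04e-06), a call lost without the Prol library 3 (log2 0.48) or the Sen(IR+UK5099) library 1 (log2 0.49).

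IGF2R, at 841, 715 and 740 CPM with UK5099, and IGFBP2, at 4.89, 3.86 and 4.30 CPM, overlapped with Sen(IR). Their log2 fold changes were 0.09 (95% interval -0.06 to 0.24, edgeR adjusted p 0.346) and 0.03 (95% interval -0.30 to 0.37, edgeR adjusted p 0.889). The rise of both after irradiation was thus still present with UK5099, at log2 1.58 and 1.34 against Prol. In that comparison 4 members were higher and 4 lower, where 53.1% of all tested genes were called, 26.9% higher and 26.2% lower.

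In Sen(IR+UK5099) the IGFBP sum was 1305 ± 37.1 CPM per kilobase (SD, n = 3), the lowest of the 4 groups. IGFBP5 made up 39.3% of it, IGFBP4 37.7%, IGFBP7 22.0%, IGFBP3 0.468% and IGFBP6 0.435%. IGFBP5, at 513 CPM per kilobase, and IGFBP4, at 492, overlapped between libraries, so their order was not resolved. They were followed by IGFBP7 at 288, IGF2R at 33.8, IGF1R at 7.93, IGFBP3 at 6.11, IGFBP6 at 5.67, IGFBP2 at 0.917 and IGF2 at 0.607, and IGF1R and IGFBP3 swap when the longest transcript sets the length.

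Some fibroblast markers moved with these members, and the summed level of the list in Sen(IR+UK5099) lay between 10908 and 11400 CPM, against 20693 to 21279 in Sen(IR). Of the 10 markers, 6 were called lower (COL1A1, COL1A2, COL3A1, PDGFRA, THY1 and FAP) and 4 were not called (DCN, LUM, PDGFRB and VIM). Among all tested genes, 12.1% were called lower and 8.76% higher in this comparison. The collagen COL1A1 averaged 4714 CPM in Sen(IR) and 1601 with UK5099, and the fibroblast protease FAP 145 and 13.2, while decorin (DCN) averaged 1363 and 1362 and lumican (LUM) 357 and 370. MKI67 averaged 0.950 CPM with UK5099, against 9.27 to 12.6 in the Sen(IR) libraries, and mitochondrial genes held 3.81 to 4.23% of the counts, against 2.78 to 3.21%, whereas CDKN1A averaged 1055 and 1098 CPM. The part of these shifts in the results for the IGF members was not tested.

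**Figure D3:**
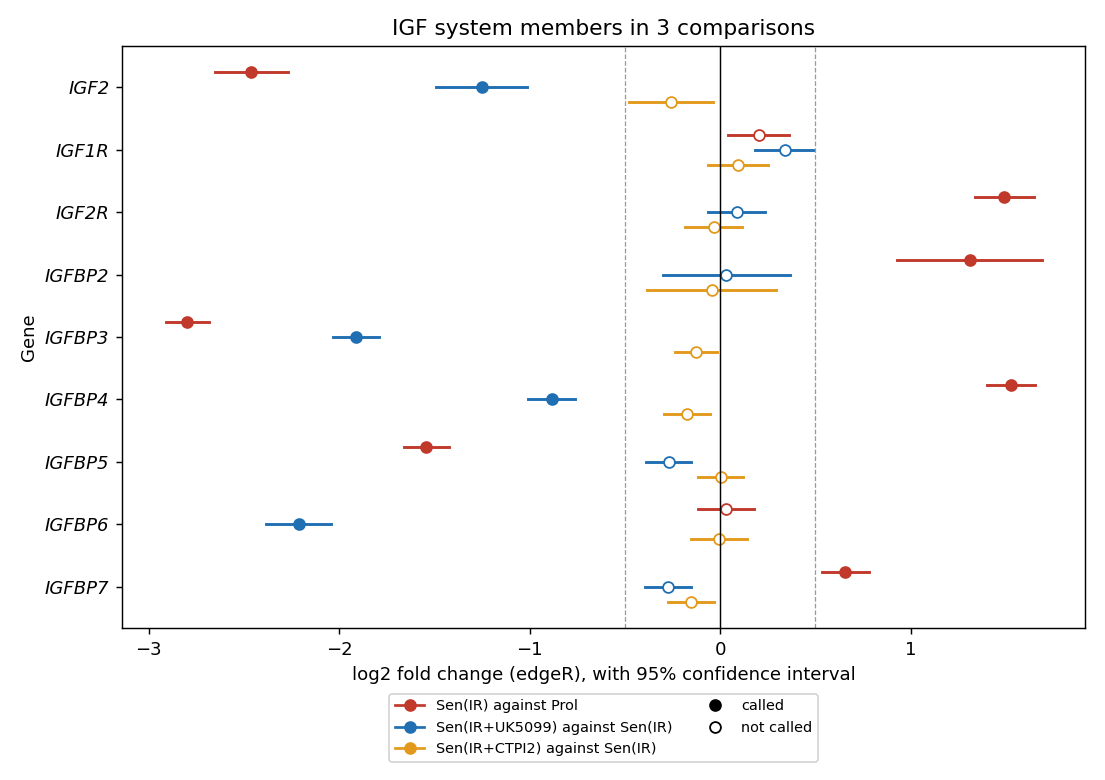
Log2 fold change of each tested member in 3 comparisons, with the 95% confidence interval of the edgeR fit. Filled points were called, open points were not, and dashed lines mark the fold limit of 0.5. IGFBP4 lies to the right for irradiation and to the left for UK5099, IGF2 and IGFBP3 lie to the left for both, and all points for CTPI2 are open, with intervals between -0.48 and 0.29.

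The third question concerned irradiated cells cultured in CTPI2. With CTPI2, 0 of the 9 members were called against Sen(IR) by edgeR, with adjusted p from 0.368 to 0.997, and DESeq2 called 0 as well. Of all tested genes, 0.166% were called. At an unadjusted p under 0.05 there were 4 members, against 7.27% of all tested genes. The intervals of all 9 log2 fold changes lay between -0.48 and 0.29, which leaves room for differences of that size.

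Those 4 members were IGF2, IGFBP3, IGFBP4 and IGFBP7, and in each of them all 3 CTPI2 libraries were below all 3 Sen(IR) libraries, as happened in one direction or the other for 15.1% of all tested genes. IGFBP4 had 1766, 1811 and 1751 CPM (log2 -0.17, edgeR adjusted p 0.368) and IGF2 had 8.02, 8.87 and 8.96 CPM (log2 -0.26, edgeR adjusted p 0.582). IGFBP7 had 614, 622 and 576 CPM (log2 -0.15, edgeR adjusted p 0.509) and IGFBP3 had 96.7, 98.1 and 93.8 CPM (log2 -0.13, edgeR adjusted p 0.605). None of these 4 passed the adjustment.

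IGFBP5 with CTPI2 had 3802, 4135 and 4071 CPM and IGFBP6 had 35.9, 36.0 and 33.6 CPM, both overlapping with Sen(IR). Their log2 fold changes were 0.00 (95% interval -0.11 to 0.12, edgeR adjusted p 0.997) and -0.01 (95% interval -0.15 to 0.14, edgeR adjusted p 0.995). IGF1R, at 84.5 to 103 CPM, IGF2R, at 639 to 753 CPM, and IGFBP2, at 3.60 to 4.42 CPM, overlapped as well. The IGFBP sum was 1785 ± 41.1 CPM per kilobase (SD, n = 3).

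Both inhibitor comparisons share the 3 Sen(IR) libraries, so the treated groups were also compared directly. Sen(IR+UK5099) was lower than Sen(IR+CTPI2) for 4 members and higher for 0 by edgeR, with 6 past an unadjusted p under 0.05 and 4 lower and 0 higher by DESeq2. Of all tested genes, 19.9% were called, 8.2% higher and 11.7% lower, and 51.2% had an unadjusted p under 0.05. IGFBP6 differed most (log2 -2.20, SE 0.0817, edgeR adjusted p 1.47e-15), then IGFBP3 (log2 -1.78, SE 0.0576, edgeR adjusted p 1.09e-16), IGF2 (log2 -0.996, SE 0.117, edgeR adjusted p 4.06e-07) and IGFBP4 (log2 -0.71, SE 0.0586, edgeR adjusted p 1.51e-09). IGFBP7 differed by -0.12 (95% interval -0.24 to 0.00, edgeR adjusted p 0.104) and IGF2R by 0.12 (95% interval -0.03 to 0.27, edgeR adjusted p 0.186). The compounds act on different carriers, and their concentrations differed, so this comparison sets side by side the treatments as they were given.

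Other genes of the pathway were taken from a list of 60, of which 49 passed the filter. After irradiation 15 of the 49 were higher, 12 lower and 22 not called, and the median log2 fold change was 0.11. Of all tested genes, 24.8% were higher and 22.4% lower in that comparison. With UK5099, 6 were higher, 10 lower and 33 not called (median 0.05), where 8.76% of all tested genes were higher and 12.1% lower. With CTPI2, edgeR called 0 of the 49, DESeq2 called 0, and 4 had an unadjusted p under 0.05. Of all tested genes, edgeR called 0.166% there, and 7.27% had an unadjusted p under 0.05.

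The list also held the proteases that cut IGFBPs and the inhibitors of those proteases. Of 9 tested, 6 were higher and 1 was lower in Sen(IR), with a median log2 fold change of 1.09, against 24.8% higher and 22.4% lower among all tested genes. PAPPA, which encodes the pappalysin that cleaves IGFBP4, had 34.8, 69.6 and 33.1 CPM in Prol and 211, 229 and 217 CPM in Sen(IR). The libraries were apart by 4.79-fold (log2 2.26, SE 0.175, edgeR adjusted p 1.13e-10), and 21.1% of the exon bases of PAPPA are shared with PAPPA-AS1 on the other strand.

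STC1 encodes a stanniocalcin, an inhibitor of pappalysins, and rose from 96.6, 68.9 and 84.6 CPM to 416, 398 and 422 CPM (log2 2.31, SE 0.0881, edgeR adjusted p 4.08e-16). The more abundant stanniocalcin gene STC2 averaged 615 CPM in Prol and 1308 in Sen(IR). The metalloprotease gene ADAM28 (log2 3.25, edgeR adjusted p 1.07e-05) and PAPPA2 (log2 2.95, edgeR adjusted p 5.83e-05) rose from means of 0.0981 and 0.112 CPM, where a handful of counts decides the fold. The serine protease gene HTRA3 fell (log2 -1.49, edgeR adjusted p 1.85e-09). HTRA1, at means of 107 and 120 CPM, and ADAM12, at 30.5 and 31.1 CPM, were not called.

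With UK5099, 6 of the 9 were lower and 1 was higher (median log2 fold change -1.16), against 12.1% lower and 8.76% higher among all tested genes. STC1 had 34.0, 40.4 and 32.4 CPM, an 11.6-fold fall from Sen(IR) to below all Prol libraries (log2 -3.53, SE 0.0944, edgeR adjusted p 3.02e-18). STC2 was also below all Prol libraries but still averaged 529 CPM. PAPPA had 90.4, 76.2 and 87.8 CPM, lower than Sen(IR) by 2.58-fold (log2 -1.37, SE 0.167, edgeR adjusted p 6.11e-07) and above all Prol libraries. HTRA1, another protease known to cut IGFBPs, rose from an average of 120 to 197 CPM (log2 0.72, edgeR adjusted p 1.56e-10). ADAM28 was lower too (log2 -2.68, edgeR adjusted p 9.23e-05), at an average of 0.945 CPM in Sen(IR) and 0.144 with UK5099.

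**Figure D4:**
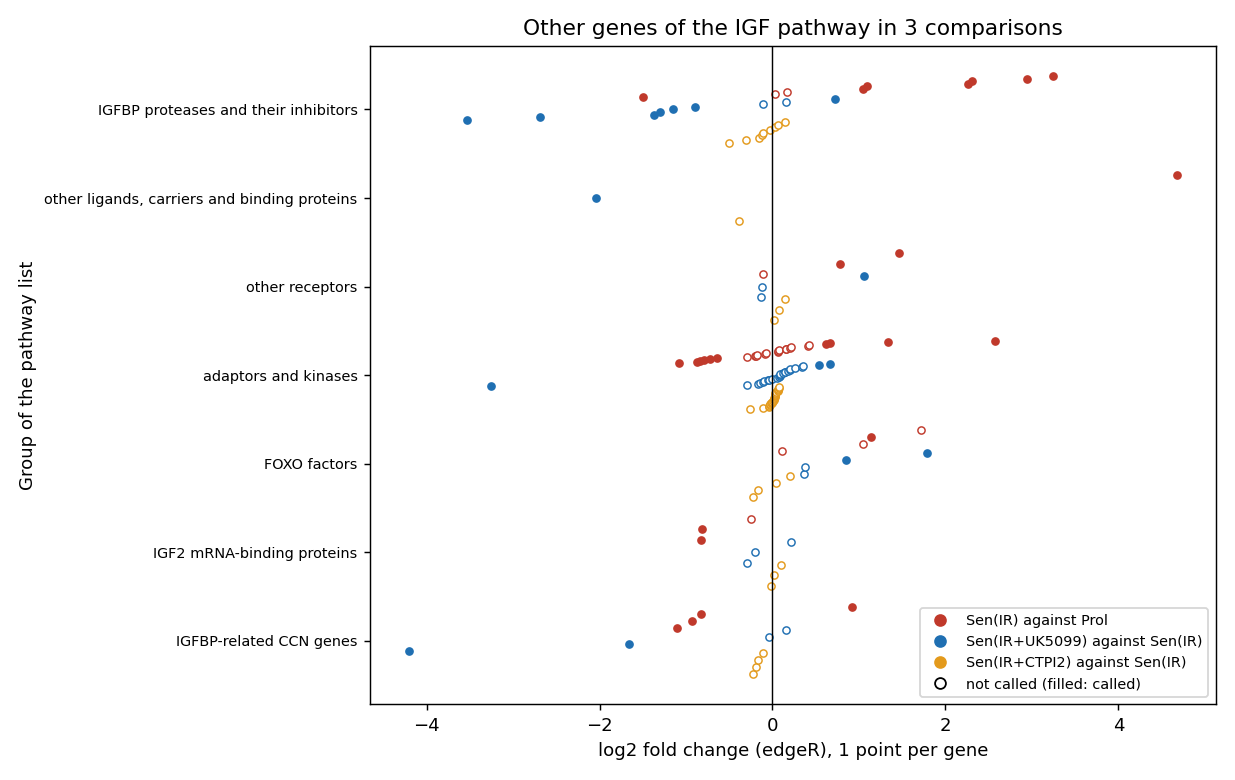
Log2 fold change of the 49 tested genes of the pathway list in 3 comparisons, by group of the list, with 1 point per gene and filled points for called genes. Proteases and inhibitors lie mostly to the right for Sen(IR) against Prol (6 of 9 called higher) and to the left for UK5099 against Sen(IR) (6 of 9 called lower), and the CTPI2 points, all uncalled, run from -0.50 to 0.20. Vertical offsets within a group separate the points and carry no value.

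CCN genes encode matricellular proteins with an IGFBP-like domain. Of 4 tested, CCN1 (log2 -1.10), CCN3 (log2 -0.93) and CCN2 (log2 -0.83) fell and CCN4 rose (log2 0.92) after irradiation, with edgeR adjusted p of at most 5.10e-06. Among all tested genes, 22.4% were called lower and 24.8% higher there. With UK5099, CCN4 went from 85.1, 85.8 and 83.1 CPM to 3.52, 5.12 and 5.04 CPM, an 18.5-fold fall (log2 -4.21, SE 0.183, edgeR adjusted p 2.03e-14). CCN3 fell as well (log2 -1.66, edgeR adjusted p 5.38e-11), and CCN1 and CCN2 were not called, where 12.1% of all tested genes were lower.

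Other receptors numbered 3. LRP1, an endocytic receptor that can bind IGFBP3, rose after irradiation (log2 1.47, edgeR adjusted p 8.52e-11), as did TMEM219, which encodes a receptor for IGFBP3 (log2 0.79, edgeR adjusted p 1.31e-09). INSR, the insulin receptor, averaged 11.5 CPM in Prol and 10.6 in Sen(IR) and then had 24.4, 20.5 and 21.5 CPM with UK5099. All 3 were above Sen(IR), by 2.08-fold (log2 1.06, SE 0.110, edgeR adjusted p 5.60e-08).

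Adaptors and kinases downstream of the receptors held 25 tested genes. After irradiation 4 were higher and 6 lower, against 24.8% higher and 22.4% lower among all tested genes. The lower ones included IRS1, the main docking protein of IGF1R (log2 -1.08, edgeR adjusted p 7.12e-13), RHEB, the GTPase that activates mTORC1 (log2 -0.87), and IRS2 (log2 -0.84). The phosphatase gene INPP5D rose from a mean of 0.194 to 1.16 CPM (log2 2.58, edgeR adjusted p 3.89e-05), and PIK3R3 (log2 1.34, edgeR adjusted p 2.69e-13) and PIK3R2 (log2 0.67, edgeR adjusted p 2.66e-03), regulatory subunits of PI3K, rose as well. PIK3R2 averaged only 2.25 CPM in Prol and 3.61 in Sen(IR). It shares 76.4% of its exon bases with another annotated gene on the same strand, and PIK3R3 shares 17.5%, so part of their reads may have gone uncounted. With UK5099, 2 of the 25 were higher, 1 was lower and 22 were not called, where 8.76% of all tested genes were higher and 12.1% lower. The higher ones were TSC1, a brake on mTORC1 (log2 0.67, edgeR adjusted p 1.12e-08), and SOS1, an activator of RAS (log2 0.54, edgeR adjusted p 5.30e-07). INPP5D was lower, at a mean of 0.116 CPM (log2 -3.26, edgeR adjusted p 1.39e-05). It rested on few counts, 32, 32 and 11 in Sen(IR) and 2, 3 and 4 in Sen(IR+UK5099).

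The FOXO factors, several of which AKT keeps out of the nucleus, numbered 4. FOXO4 rose after irradiation (log2 1.14, edgeR adjusted p 2.66e-07). FOXO3 had 85.5, 93.1 and 86.4 CPM in Sen(IR) and 165, 147 and 165 CPM with UK5099 (log2 0.85, SE 0.0619, edgeR adjusted p 1.58e-10), and FOXO6, below 1 CPM in every library, was also called higher (log2 1.78, edgeR adjusted p 5.44e-03). Of the 3 IGF2 mRNA-binding proteins, IGF2BP2 (log2 -0.83, edgeR adjusted p 6.06e-13) and IGF2BP1 (log2 -0.81, edgeR adjusted p 2.67e-09) fell after irradiation, beside IGF2 itself and 22.4% of all tested genes. With UK5099, 0 of 3 were called, against 20.8% of all tested genes. All 3 had an edgeR adjusted p under 0.05 in that comparison but stayed under the fold limit.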

How the data were processed

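RNA of 12 libraries, 3 in each of 4 groups, was taken as deposited. Per the methods and the submitters' processing notes, the authors used Trimmomatic 0.36 for trimming, STAR 2.5.2b for alignment to GRCh38 and featureCounts (Subread 1.5.2) for counting exon reads per gene. The deposited values are raw counts, not normalized, and 0 columns belonged to other samples. The quasi-likelihood test of edgeR 4.0.16 (R 4.3.3), after filterByExpr and TMM, was fitted once to all 12 libraries, with Benjamini-Hochberg adjustment over 16251 genes, which hold 99.9% of the counts. CPM are counts per 1000000 of the TMM-scaled total of tested genes. The SE is the absolute log2 fold change divided by the square root of F, and intervals are at 95%. The coefficient of variation between replicates was 6.12% from the common dispersion and 1.17 to 17.3% among members.

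Positions, exon lengths and overlaps came from GENCODE 44. The members, the pathway list, the marker lists and the tests were chosen with earlier results of these data known. Every member was named. Of the pathway list, called genes with the largest absolute change were named, at most 3 in each direction per comparison and group, and a gene named in one comparison could be given in the others (PAPPA after irradiation, STC2, and HTRA1 and ADAM12 where they were not called, were added after their values were seen). Groups came from the sample labels. Alternatives were DESeq2 1.42.0, scaling by RLE or upper quartile, keeping low counts, only the compared groups, a replicate block, an unadjusted p, a log2 limit of 1, the longest transcript as length, and leaving out each library. On simulated data for Sen(IR+UK5099) against Sen(IR) with 16123 genes, edgeR recovered 80 of 86 genes changed by a log2 of 1 and 113 of 114 changed by 2, with 2 false calls. Same-numbered libraries of different groups had deviations that correlated by -0.0944 to 0.0612 over 18 pairs, so the numbers were not treated as pairs. Protein sequences were not used here.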

Additional observations from a re-analysis of the deposited data

How the results depend on the processing

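Of the counts of called members and pathway genes under each alternative, 136 stayed within 1.5 times the value reported and 4 did not, all with a log2 limit of 1. That limit left 2 of 4 members in Sen(IR+UK5099) against Sen(IR+CTPI2), and in the pathway list 14 of 27 genes after irradiation, 12 of 35 in Sen(IR+UK5099) against Prol and 9 of 15 between the inhibitors, as fewer genes reach the higher fold. Among single calls it ended those of IGFBP4 with UK5099 (-0.88), of IGFBP7 after irradiation (0.66), of IGF1R (0.54) and IGFBP4 (0.64) in Sen(IR+UK5099) against Prol, and of IGF2 (-0.996) and IGFBP4 (-0.71) between the inhibitors. Leaving out each library gave 7 to 7 members after irradiation, 4 to 4 with UK5099, 0 to 0 with CTPI2, 4 to 4 between the inhibitors and 7 to 8 in Sen(IR+UK5099) against Prol, and 27 to 29, 14 to 16, 0 to 0, 14 to 16 and 32 to 33 pathway genes. With the replicate block these counts were 7, 4, 0, 4 and 8 members, and it changed no member's call. Only 4 of 12 libraries correlated best with libraries of their own number, so no pairing by number was seen. Such a check cannot show whether same-numbered samples were handled together.

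Upper-quartile scaling shifted the median of all genes by 0.12 after irradiation and by 0.14 in Sen(IR+UK5099) against Prol, where it added a call for IGFBP7 (0.52). The changes of sign concerned uncalled values near 0. In CTPI2 against Sen(IR), IGFBP5 turned to -0.0037 with DESeq2 and with RLE scaling, -0.0028 without the filter and -0.0059 with upper-quartile scaling. Over the fits without single libraries, it ranged from -0.0211 to 0.0390, IGF2R from -0.0837 to 0.0320, IGFBP2 from -0.107 to 0.0437 and IGFBP6 from -0.0414 to 0.0255. Over such fits IGFBP2 ranged from -0.0573 to 0.113 in UK5099 against Sen(IR) and from -0.0140 to 0.156 against CTPI2, and IGFBP6 after irradiation from -0.0077 to 0.101. The cause was not tested. Depth limits IGF1 and other genes near a few counts.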

Other observations

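For each of the 9 tested members, the tested genes with the most similar course over the 12 libraries were found by the root mean square difference of centred log2 CPM (pseudocount 0.5), which is a description and carries no test. IGFBP3 was closest to TNC, the matrix glycoprotein tenascin-C (difference 0.102), and then to PRR11 (0.150). IGF2 was closest to the cation channel gene TRPC6 (0.132) and the DNA replication nuclease gene FEN1 (0.162). IGFBP4 was closest to the channel gene TRPA1 (0.0688) and the sialyltransferase gene ST3GAL5 (0.0700), and IGFBP5 to the cohesin subunit gene SMC1A (0.0719) and the basement membrane gene NID1 (0.0765). IGFBP6 was closest to CLEC2B (0.105) and VEPH1 (0.134), IGFBP7 to ALG5 (0.0424) and CKAP4 (0.0557), and IGF2R to CACNA1A (0.0838) and MAN2B2 (0.0878). For IGF1R these were UBXN7 (0.0663) and RPAP2 (0.0666), and for IGFBP2 they were CACHD1 (0.0849) and INSIG2 (0.0883). Genes with a small range over the groups, such as IGFBP7 with 0.66 on the log2 scale, reach small differences more easily than IGFBP3 with 4.68.

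Genes of the pathway list that remained too low to test included IGFBP1, with group means from 0.0514 to 0.242 CPM. ESM1, which encodes endocan, was named among the other ligands and carriers. It was called higher after irradiation (log2 4.68, edgeR adjusted p 2.76e-08) and lower with UK5099 (log2 -2.04, edgeR adjusted p 6.87e-05), at 0.0762 CPM in Prol, 2.21 in Sen(IR), 0.533 in Sen(IR+UK5099) and 1.69 in Sen(IR+CTPI2). Its Prol counts were 1, 0 and 5, so a handful of counts decides the fold after irradiation. PAPPA2, another pappalysin gene, was called lower with UK5099 (log2 -1.16, edgeR adjusted p 0.0334), at 0.876 CPM in Sen(IR) and 0.390 in Sen(IR+UK5099). It was chosen after its values were seen.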
